A study of Arabidopsis thaliana with 24 samples.

Results

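Roots of Arabidopsis thaliana watered with nano-titania suspended in a KCl solution were compared with roots watered with millipore water alone, on 3 arrays a group, which are 6 of the 24 arrays of the series and were chosen by their sample titles. All plants were wild-type Columbia (Col-0), were grown in potting media and were 29 days old at harvest. The titania plants received 500 mg/L of TiO2 particles on days 0, 4 and 17, poured over the pot from above, and the water plants received no particle and no added KCl. The KCl solution is given as 0.1 mM in the sample descriptions and as 0.1 M in the treatment protocol, and these data do not settle which was used. The particle, the salt and any difference between the titania and the ceria experiment therefore cannot be told apart in a comparison of TiO2 with water. KCl roots (the salt without particles) and CeO2 roots (nano-ceria at 500 mg/L in water) are given beside it, as 3 arrays each, and the same treatments in rosette leaves as another 12 arrays. The labels call the samples biological replicates and do not say how many plants went into each.

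Titanium dioxide particles are used in paints, sunscreens and coatings and reach soil through sewage sludge. Plant cells answer heat and other stresses that unfold proteins by making heat shock proteins. Small heat shock proteins hold unfolding proteins in a soluble state, HSP70 and HSP90 refold them with ATP, and co-chaperones such as the Hop, FKBP and Fes1 proteins bring substrates and partners to those machines. Many heat-inducible genes of this system are low in unstressed tissue and are induced by heat shock transcription factors, while other members are made at all times. Cold and drought act through another set of genes, which code for the LEA and dehydrin proteins that protect membranes and proteins in drying cells. Roots also hold their own stores of defence, among them the ER bodies with the beta-glucosidase PYK10 and its jacalin-related lectin partners, and sulphur-rich glucosinolates.

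The signal of 22746 probe sets was read from every array on a log2 scale, so that a difference of 1 is a doubling of signal. Of these, 13513 pointed to a single gene in the probe annotation, and most genes of the classic lists had no such probe set, so that counts below refer to measured members. A root gene and a photosynthesis gene matched the tissue labels. PYK10 averaged 11.02 ± 0.66 (SD, n = 3) in water roots and 3.79 in water leaves, whereas PSAN, a subunit of photosystem I, averaged 5.80 ± 1.35 in water roots and 13.38 in water leaves. The summed linear signal of the 8 measured of 45 leaf photosynthesis genes ran from 1361 to 2737 in TiO2 roots and from 1028 to 2845 in water roots, and that of the 4 measured of 15 root hair genes from 48.0 to 72.2 and from 55.8 to 74.2. The root hair genes EXPA7 and AT1G30870 were dim and did not set the tissues apart. EXPA7 averaged 3.63 in water roots and 3.66 in water leaves, and AT1G30870 averaged 4.40 and 4.17. The arrays were uneven. The lower quartile of signal was 3.78 on TiO2 replicate 2 and 3.73 on water replicate 1, against 3.504 to 3.67 on the other 4, so that their values span a narrower range. KCl root replicates 1 and 3 were narrow too, at 3.90 and 3.74, so values against KCl roots also rest on narrow arrays. TiO2 replicate 2 correlated with TiO2 replicate 1 at r = 0.917 and with water replicate 1 at r = 0.965, across probe sets. TiO2 replicate 1 correlated with TiO2 replicate 3 at r = 0.968.

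TiO2 and water roots differed at few genes beyond the spread of 3 arrays a group. A single probe set of 22746 passed the limma test at an adjusted p of 0.05, which is 0.00440% of those tested. At an unadjusted p under 0.05 there were 534 (2.35%), fewer than the 1137 that would be there if no probe set differed, with 294 higher (1.29%) and 240 lower (1.06%) in TiO2. The TiO2 arrays did not overlap the water arrays at 1500 probe sets (6.59%), of which 570 were higher (2.51%) and 930 lower (4.09%). The largest differences lay on the high side. Differences of more than 2 log2 units were reached by 45 probe sets in the higher direction (0.198%) and by 14 in the lower (0.0615%). All values below are differences of mean log2 signal, TiO2 minus water, with the standard error from the limma fit over the 12 root arrays. Of the 20 probe sets with the smallest p, 10 had no listed gene and are not named.

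The gene that rose was AT5G35320, which carries no gene symbol in the files. Its signal was 8.12, 8.22 and 8.62 on the 3 TiO2 arrays and 6.53, 6.55 and 6.56 on the 3 water arrays. The SD of the 3 water values was 0.01, and every TiO2 array was above every other root array. The difference was 1.77 ± 0.18 (adjusted p = 0.0446). The KCl roots were at 6.45 ± 0.13 and the CeO2 roots at 7.04 ± 0.19. AT5G35320 also passed against KCl roots (1.86 ± 0.18, adjusted p = 0.00790) and against CeO2 roots (1.28 ± 0.18, adjusted p = 0.0359). With the replicate number as a block in the fit, these adjusted p were 0.0322 and 0.0942. The call against water did not hold without any 1 of the 12 root arrays (adjusted p from 0.0736 to 0.431), while the difference stayed between 1.62 and 1.87. It belongs to none of the gene lists used here.

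Among probe sets of a single gene, the 4 largest differences between TiO2 and water roots were those of heat shock genes; the largest of all, 5.01, belonged to a probe set with no single listed gene. All 11 measured of the 39 genes of the heat shock list were higher in TiO2 than in water, with a median difference of 2.04, against -0.03 over all probe sets and 45.2% of probe sets higher. The arrays did not overlap for 9 of the 11, against 2.51% of all probe sets in that direction, and the unadjusted p was under 0.05 for the same 9. None passed over all probe sets. For 4 of the 11, the TiO2 arrays were also above all 9 other root arrays, which was so for 78 probe sets in all (0.343%). Earlier results of these data were known when the list was chosen, so these counts are a description.

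AT5G48570 had the smallest p of the list. It encodes ROF2, a heat-induced FK506-binding prolyl isomerase that associates with HSP90. Its signal was 7.99, 6.88 and 8.09 in TiO2 roots and 3.33, 4.21 and 3.14 in water roots. KCl roots at 3.62 ± 0.66 and CeO2 roots at 3.40 ± 0.68 lay at the level of water, and no TiO2 array overlapped any of the 9. The difference was 4.09 ± 0.49, with an adjusted p of 0.0760 against water, 0.0131 against KCl roots and 0.0214 against CeO2 roots. With the replicate block it was 0.0360 against KCl roots and 0.0617 against CeO2 roots. AT5G48570 passed against water where the variance prior was allowed a trend and outliers (adjusted p = 0.0107), a setting in which AT5G35320 did not pass.

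Small heat shock proteins bind unfolding proteins without ATP. AT1G53540, a cytosolic member, read 7.23, 6.73 and 9.90 in TiO2 roots against 3.99, 3.299 and 3.86 in water roots. All 9 other root arrays stayed below the lowest TiO2 array, with KCl roots at 3.73 ± 0.18. The difference was 4.24 ± 0.68 (adjusted p = 0.337), and 4.22 ± 0.68 against KCl roots, which passed (adjusted p = 0.0360, but 0.0570 with the replicate block). AT1G54050 read 10.11, 10.67 and 11.11 against 6.86, 4.19 and 6.97, a difference of 4.63 ± 0.95 (adjusted p = 0.827). KCl roots lay between them at 7.58 ± 1.37 for this gene, and all TiO2 arrays were still the highest of the 12. AT2G29500, another cytosolic member, read 9.06, 7.96 and 10.91 against 5.65, 3.87 and 5.08, with a difference of 4.44 ± 1.15 (adjusted p = 0.9999). KCl replicate 1 and CeO2 replicate 1 reached into its TiO2 range. AT5G51440, a mitochondrial member, read 6.09, 5.11 and 8.20 against 3.94, 4.08 and 4.17, a difference of 2.41 ± 0.63.

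All 10 measured of 19 small heat shock genes had a difference above 0, against 45.2% of all probe sets, with a median of 2.06. Of these, 7 did not overlap between the groups, against 2.51% of all probe sets in that direction. KCl roots were above water roots for 9 of the 10, against 53.5% of all probe sets, with a median of 0.61 for KCl minus water and 1.68 for TiO2 minus KCl. These 10 share 5 genes with the heat shock list. The exceptions at the low end were AT5G54660 (0.00 ± 0.30) and AT4G21870 (0.57 ± 0.69), in which TiO2 and water arrays were mixed. TiO2 replicate 3 was the highest TiO2 array for all of the 10 but AT4G21870. For AT1G52560, a mitochondrial small heat shock gene, it read 8.49 where the other TiO2 arrays read 4.22 and 4.01 and the water arrays 3.23, 2.78 and 2.88. For ATHSP22.0, of the endoplasmic reticulum, it read 6.97 where the others read 4.28 and 4.51 and the water arrays 4.09, 3.89 and 3.83. Without TiO2 replicate 3 the median of the heat shock list was 1.26 and that of the small heat shock list 1.29, with 11 of 11 and 9 of 10 higher. Without the 2 narrow TiO2 and water arrays they were 2.38 and 2.39, with 10 of 11 and 10 of 10 higher.

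**Figure D1:**
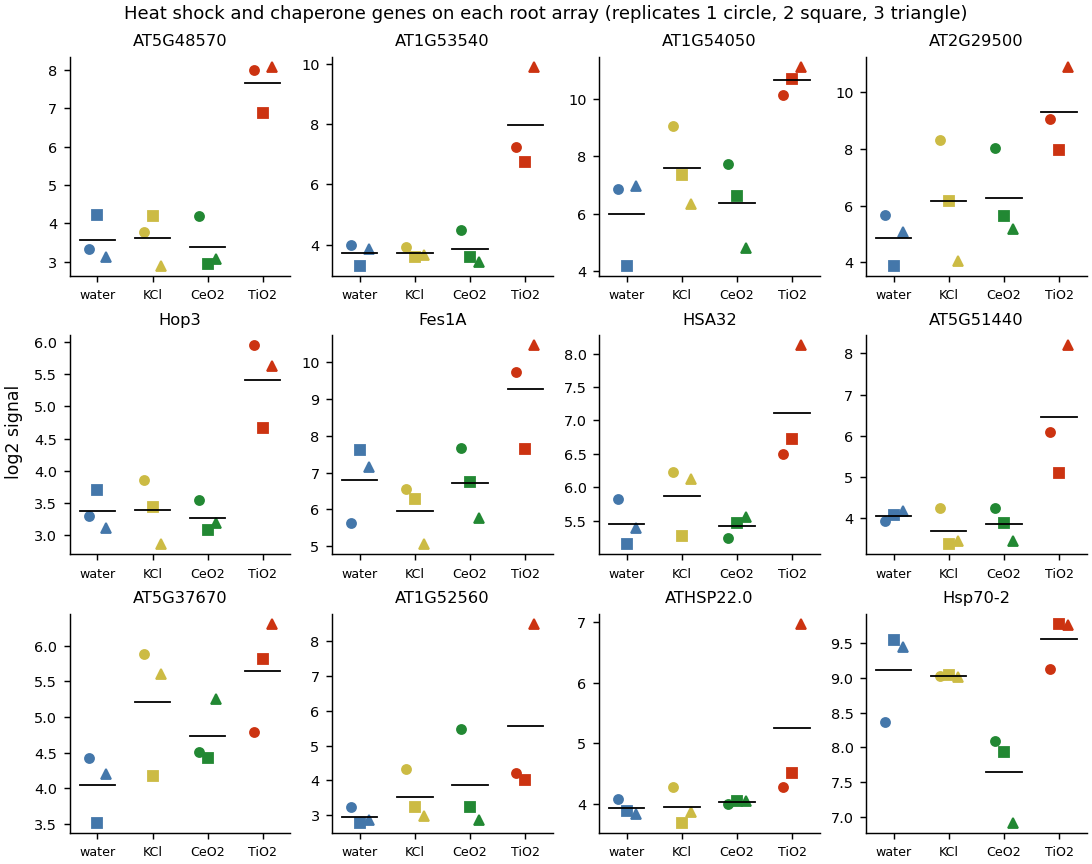
Log2 signal of 12 heat shock and chaperone genes on each of the 12 root arrays, grouped as water, KCl, CeO2 and TiO2, with a marker per replicate and a black line at the group mean; each panel has its own vertical scale. The TiO2 arrays stand above all others for AT5G48570, AT1G53540, AT1G54050, Hop3, HSA32 and AT5G51440, and only replicate 3 stands far above for AT1G52560 and ATHSP22.0, while Hsp70-2 overlaps between TiO2 and water.

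Among co-chaperones the differences were unequal. Hop3, the heat-induced one of the Hop proteins that link HSP70 to HSP90, read 5.95, 4.66 and 5.62 in TiO2 roots and 3.299, 3.698 and 3.12 in water roots. The difference was 2.04 ± 0.36 (adjusted p = 0.426), and KCl and CeO2 roots were at 3.39 ± 0.50 and 3.27 ± 0.24. Its relatives Hop1 and Hop2 differed by -0.37 ± 0.98 and 0.55 ± 0.80, with arrays of the groups mixed. Fes1A, which keeps HSP70 from being degraded, read 9.73, 7.64 and 10.45 against 5.63, 7.60 and 7.15, a difference of 2.48 ± 0.80 in which the lowest TiO2 array was barely above the highest water array. HSA32, which prolongs acquired heat tolerance, is not among the co-chaperones counted here. It read 6.50, 6.73 and 8.13 against 5.83, 5.15 and 5.40, a difference of 1.66 ± 0.42. Of the 8 measured of 14 co-chaperones, 6 were higher and 2 lower, where 45.2% of all probe sets were higher. Their median was 0.90, or 0.51 without water replicate 1 and 1.54 without water replicate 2. AT4G02450, a p23-like partner of HSP90, was the member whose arrays did not overlap in the other direction, at 6.41, 6.93 and 6.68 against 7.25, 8.29 and 7.19 (difference -0.90 ± 0.39).

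HSP70 genes had smaller differences on these 6 arrays. Hsp70-2 differed by 0.44 ± 0.38 and AT3G09440, a cytosolic HSP70, by 0.46 ± 0.92, and AT3G09440 was at 12.39, 11.85 and 12.88 in TiO2 roots against 10.80, 13.31 and 11.65 in water roots. Both were already high in water roots, and the groups overlapped. All 4 measured HSP70 genes were higher, against 45.2% of all probe sets, with a median of 0.44. An unadjusted p under 0.05 was found for 0 of them, against 2.35% of all probe sets. The median was 0.09 without water replicate 1 (3 of 4 higher), 0.12 without water replicate 3 (2 of 4 higher) and 0.99 without water replicate 2 (4 of 4 higher).

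Genes of cold and drought had higher means in TiO2 than in water roots, and here the KCl means were below those of water. The size of the KCl-minus-water difference varied. It was -0.37 ± 0.91 for LEA4-5 and -2.14 ± 0.87 for COR15A, and neither passed (adjusted p = 0.950 and 0.368). All 5 measured of the 44 abscisic acid and cold genes were higher, with a median difference of 1.13, against 45.2% of all probe sets higher, and 2 did not overlap, against 2.51%. COR15B, one of a pair of chloroplast-targeted LEA proteins induced by cold, read 5.71, 4.90 and 5.46 in TiO2 roots and 4.39, 4.07 and 4.23 in water roots. The difference was 1.13 ± 0.22 (adjusted p = 0.694), and 1.56 ± 0.22 against KCl roots, which passed (adjusted p = 0.0199, but 0.0538 with the replicate block). Its partner COR15A read 9.62, 8.13 and 9.68 against 5.78, 5.86 and 8.32, so that 1 water array lay within the TiO2 range, and differed by 2.49 ± 0.87. LEA4-5, a group 4 LEA protein, differed by 2.31 ± 0.91, and its TiO2 arrays were all above the water arrays.

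The dehydrins LTI30 and COR47 were strongly expressed in both groups. LTI30 read 13.85, 11.51 and 13.76 in TiO2 roots, 11.97, 12.18 and 12.60 in water roots and 10.07, 9.63 and 8.43 in KCl roots. TiO2 and water overlapped (0.79 ± 0.79), while KCl lay below both. The KCl-minus-water difference was -2.88 ± 0.79 (adjusted p = 0.160) and the TiO2-minus-KCl difference 3.67 ± 0.79 (adjusted p = 0.0821). Over the 5 genes the median was -2.14 for KCl minus water and 2.97 for TiO2 minus KCl. Those comparisons share arrays with each other and with the comparison of TiO2 with water, so their values are set side by side only. For the heat shock list the same medians were 0.02 and 2.03.

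**Figure D2:**
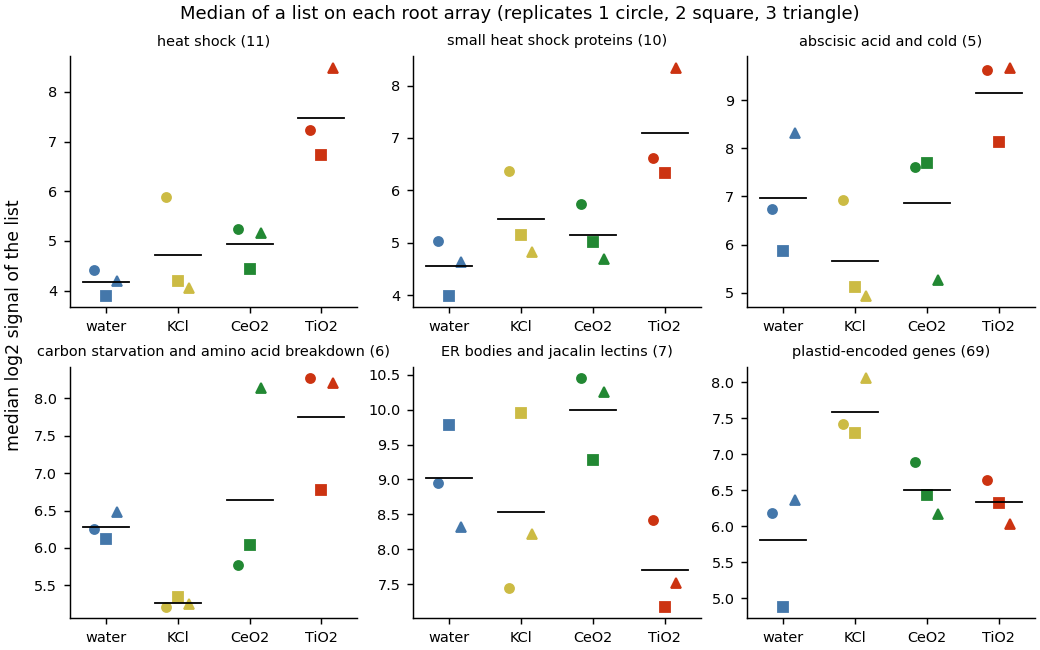
Median log2 signal of the measured genes of 6 lists on each of the 12 root arrays, grouped as water, KCl, CeO2 and TiO2, with a marker per replicate and a black line at the mean of the 3 medians; the number of genes is in brackets. The heat shock medians of the TiO2 arrays (6.73 to 8.49) lie above all others, the abscisic acid and cold medians are lowest in KCl roots on average, the ER body medians of TiO2 and water overlap, and the plastid-encoded medians are highest in KCl roots.

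Genes of carbon starvation, which break down branched-chain amino acids and recycle carbon when sugar runs short, were also higher. All 6 measured of 20 had a difference above 0, with a median of 1.204, against 45.2% of all probe sets higher, and 2 did not overlap between the groups, against 2.51%. MCCA, a subunit of the methylcrotonyl-CoA carboxylase of leucine breakdown, read 9.21, 7.89 and 8.74 in TiO2 roots against 7.16, 6.60 and 6.95 in water roots (1.71 ± 0.55, adjusted p = 0.9999). ETFQO, which passes electrons from that pathway to the respiratory chain, differed by 1.05 ± 0.39 and its groups overlapped. PPDK, which makes phosphoenolpyruvate from pyruvate, differed by 2.41 ± 1.07. TiO2 replicate 2 was the lowest TiO2 array for all 6, and without it the median was 1.88. It was 0.90 without TiO2 replicate 1 and 0.88 without TiO2 replicate 3. The list median on CeO2 replicate 3 was 8.13, within the range of the TiO2 arrays (6.78 to 8.27). KCl roots were above water for 1 of the 6, against 53.5% of all probe sets, with a median of -0.84 for KCl minus water.

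Among the other genes named by p, 2 more stood above all 9 other root arrays. NTRC, a plastid thioredoxin reductase with its own thioredoxin domain, read 6.61, 5.56 and 6.75 in TiO2 roots against 4.70, 5.08 and 4.79 in water roots (1.45 ± 0.30, adjusted p = 0.827). In leaves, where the gene is more strongly expressed, TiO2 was at 8.86 and water at 7.66. AT2G37980 read 5.13, 4.56 and 5.19 against 3.27, 3.92 and 3.55 (1.38 ± 0.27, adjusted p = 0.696). Neither passed.

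Genes lower in TiO2 than in water roots were spread over several functions, and none passed. MSRB5, a methionine sulfoxide reductase that repairs oxidised methionine in proteins, had the smallest p. Its signal was 6.81, 8.31 and 6.95 in TiO2 roots and 9.88, 8.78 and 9.46 in water roots. KCl roots were at 9.86 ± 0.21 and CeO2 roots at 9.46 ± 0.08, and every TiO2 array was below all 9, which was so for 125 probe sets in all (0.550%). The difference was -2.01 ± 0.39 (adjusted p = 0.696), and -2.50 ± 0.39 against KCl roots, where MSRB5 fell past the threshold (adjusted p = 0.0333, but 0.0666 with the replicate block). The other measured reductases MSRA5, MSRB3, MSRB6 and MSRB9 differed by -0.43 to 0.16, with overlapping groups.

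Low values were also found for SIR and for glucosinolate genes. SIR, the sulphite reductase of sulphate assimilation, read 9.08, 9.42 and 8.84 in TiO2 roots against 9.88, 10.48 and 9.71 in water roots, with KCl and CeO2 roots at 9.92 ± 0.21 and 9.92 ± 0.08. The difference was small and even, at -0.91 ± 0.24 (adjusted p = 0.9999), and all TiO2 arrays were below all 9. The 2 measured of 15 genes of the sulphate list, AT1G04770 and BGLU28, differed by 0.02 and -0.006. BCAT4, the aminotransferase that starts methionine chain elongation for aliphatic glucosinolates, read 6.61, 8.21 and 4.97 against 9.40, 10.81 and 9.14. Its difference of -3.19 ± 0.90 (adjusted p = 0.9999) was the lowest of all 22746 probe sets. KCl roots were at 9.81 ± 1.43, near water, and CeO2 roots at 7.39 ± 0.74, near TiO2. AT2G31790, a glucosyltransferase of the glucosinolate list, read 4.97, 5.48 and 4.89 against 5.91, 7.46 and 5.69 (-1.24 ± 0.42). UGT74B1, the glucosyltransferase that acts near the end of glucosinolate core synthesis, differed by -0.82 ± 0.80 with overlapping groups. All 3 measured of 22 genes of that list were lower, where 45.2% of all probe sets were higher. Their median was -1.24, or -0.68 without water replicate 2, and 2 did not overlap, against 4.09% of all probe sets in that direction.

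The genes of root ER bodies and their lectins were lower in TiO2 roots, mostly within the spread of the arrays. All 7 measured of 15 were lower than in water, with a median of -1.18, where 45.2% of all probe sets were higher. Only JAL33 did not overlap between the groups, against 4.09% of all probe sets in that direction. JAL33, a jacalin-related lectin of the PYK10 complex, read 10.43, 9.99 and 9.83 in TiO2 roots against 11.73, 11.31 and 11.25 in water roots (-1.35 ± 0.36, adjusted p = 0.9999). CeO2 roots were at 12.21 ± 0.31 and KCl roots at 10.95 ± 0.79, with KCl replicate 1 at 10.07, within the TiO2 range. JAL22, of the same lectin family, differed by -1.37 ± 0.66. PYK10 itself read 11.11, 8.80 and 9.60 against 11.15, 11.60 and 10.31 (-1.18 ± 0.72), so that TiO2 replicate 1 lay within the range of water. NAI1, the transcription factor that sets up ER bodies, differed by -0.82 ± 0.46, and NAI2, a protein of their interior, by -0.59 ± 0.64. Of these genes, PYK10, JAL22, JAL33 and JAL34, are also the root identity markers, whose summed linear signal was 2448 to 5654 in TiO2 roots and 5147 to 8730 in water roots. Fewer cells that express them and less RNA per cell cannot be told apart in whole roots.

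Class III peroxidases, which cross-link or loosen cell walls, included 2 of the 7 single-gene probe sets with a difference below -2. AT1G49570 read 4.35, 5.74 and 4.27 in TiO2 roots against 8.65, 6.01 and 7.97 in water roots (-2.76 ± 0.98), and CeO2 roots were higher still at 9.44 ± 1.43. AT5G19890 read 5.32, 5.48 and 3.40 against 7.89, 6.65 and 6.36 (-2.23 ± 0.97). It was looked at after its values were seen, and both were below all 9 other root arrays. Of 55 measured of 73 peroxidases, 36 were lower and 19 higher, with a median of -0.20, where 45.2% of all probe sets were higher. Of the 55, 3 did not overlap in the lower direction, against 4.09% of all probe sets. Without water replicate 1 the median was -0.02, with 26 higher.

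The remaining genes with low p were AT3G08630, AT1G17430, AT2G30695 and AT3G13980, for which no symbol is listed. AT1G17430 read 7.21, 6.68 and 6.65 in TiO2 roots against 8.26, 7.24 and 8.29 in water roots (-1.08 ± 0.30, adjusted p = 0.9999). It was higher in KCl roots (8.56 ± 0.27) and CeO2 roots (8.92 ± 0.04) than in water roots, and fell against both (-1.72 ± 0.30 with adjusted p = 0.0463, and -2.07 ± 0.30 with adjusted p = 0.0353). With the replicate block these adjusted p were 0.0712 and 0.0735. AT3G13980 read 7.34, 8.68 and 7.20 against 10.90, 10.10 and 9.02 (-2.26 ± 0.64), and KCl and CeO2 roots were at 8.31 ± 0.99 and 8.49 ± 0.71, nearer to TiO2 than to water. AT3G08630 differed by -1.07 ± 0.25 and AT2G30695, a dim probe set between 3.15 and 4.08 on these arrays, by -0.58 ± 0.17.

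**Figure D3:**
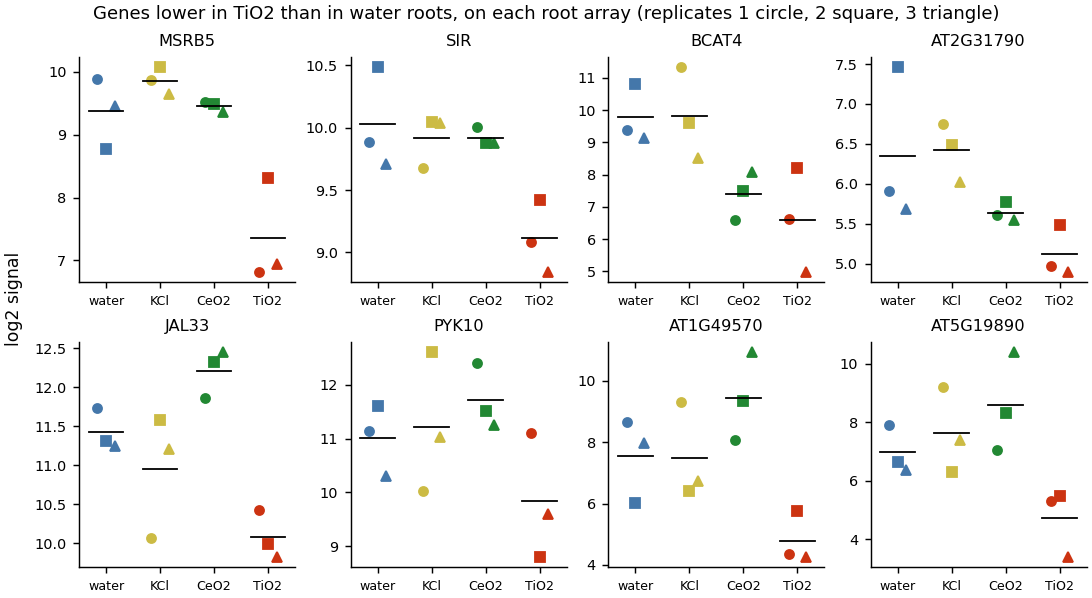
Log2 signal of 8 genes with lower means in TiO2 than in water roots, on each of the 12 root arrays, grouped as water, KCl, CeO2 and TiO2, with a marker per replicate and a black line at the group mean; each panel has its own vertical scale. MSRB5, SIR, AT2G31790, AT1G49570 and AT5G19890 are below all other arrays on all 3 TiO2 arrays, BCAT4 is low in both TiO2 and CeO2 roots, and PYK10 overlaps between TiO2 and water.

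Genes of iron supply and of oxidative stress had small differences, and none passed. The 6 measured of the iron uptake and storage list differed by -0.91 to 0.63, with a median of 0.14, or 0.02 without TiO2 replicate 1 and 0.35 without TiO2 replicate 3, and 0 had an unadjusted p under 0.05. BHLH101, an iron-deficiency transcription factor, differed by -0.03 ± 0.17, and PYE, another regulator of iron deficiency, by 0.63 ± 0.57. The 6 measured oxidative stress genes had a median of 0.29, or 0.08 without water replicate 2, and AT2G21640, a marker of oxidative stress, was the one whose arrays did not overlap (5.14, 4.50 and 5.90 against 4.28, 4.30 and 4.41; 0.85 ± 0.40). The 13 measured glutathione S-transferases had a median of 0.04 and the 23 cytochrome P450s one of -0.04. The 4 measured root hair genes, whose summed signal was dim, had a median of -0.13. Leaving out 1 array took the glutathione S-transferases from -0.06 to 0.19, the cytochrome P450s from -0.14 to 0.06 and the root hair genes from -0.36 to 0.09. The 4 measured reference genes lay at -0.32 to -0.08, among them GAPC2 at -0.19 ± 0.32 and PEX4 at -0.08 ± 0.46.

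**Figure D4:**
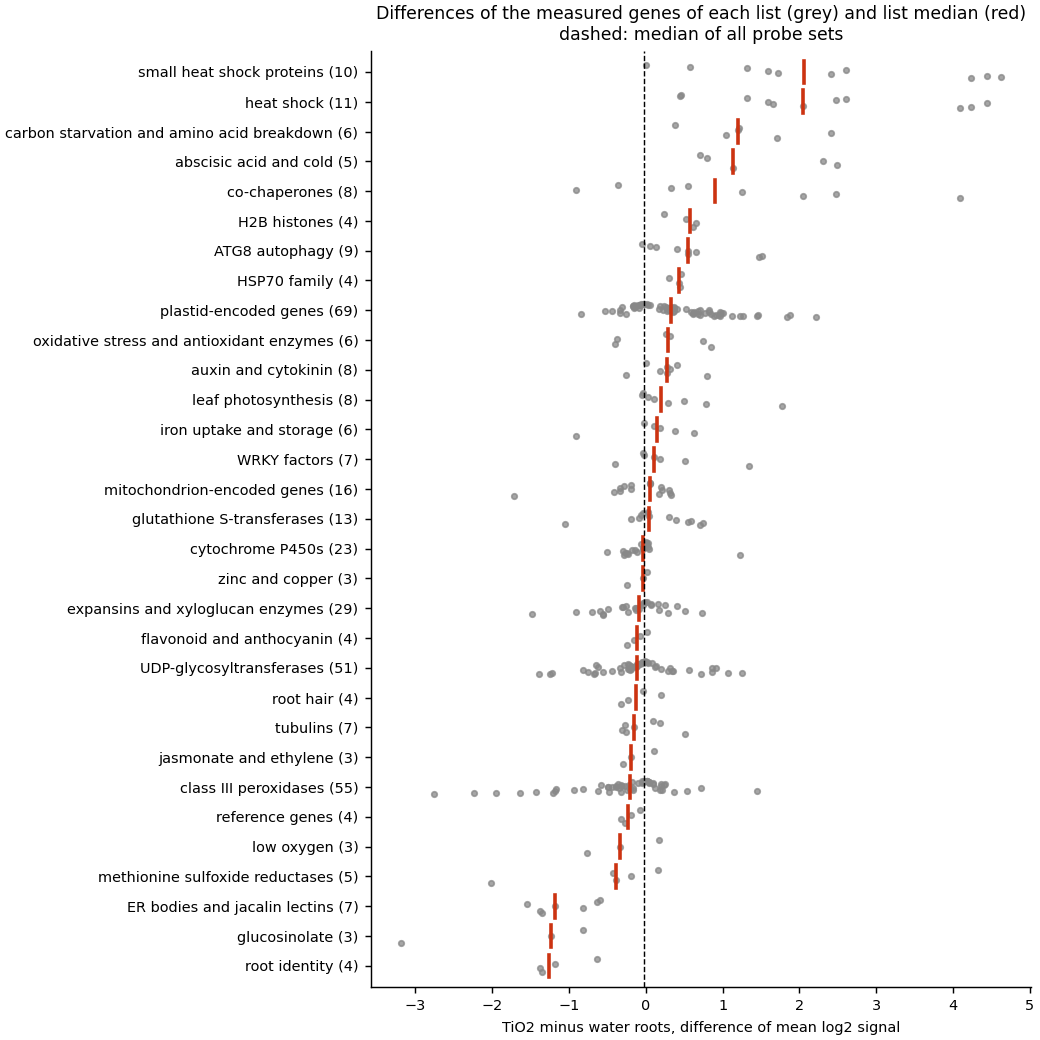
TiO2 minus water roots, as the difference of mean log2 signal, for the measured genes (grey points) of each list with at least 3, with the list median in red, the number of genes in brackets and the median of all probe sets (-0.03) as a dashed line. The heat shock and small heat shock lists reach medians of 2.04 and 2.06, the ER body and glucosinolate lists -1.18 and -1.24, and most other lists centre within 0.6 of 0.

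The salt and the particle steps are set beside the comparison. Between KCl and water roots, which hold no particle, 27 probe sets passed (0.119%), and 0 of them with the replicate number as a block. Whether the numbers pair these arrays is not known. Between TiO2 and KCl roots, which share the salt and the experiment, 79 passed (0.347%). Against CeO2 roots, TiO2 roots had 38 passing probe sets (0.167%). These comparisons share the TiO2, water or KCl arrays. LHW, a transcription factor of root vascular patterning, is a gene whose KCl level stood apart from water and TiO2 roots. It was at 8.69 ± 0.35 in KCl roots, 6.14 ± 0.24 in water roots and 6.29 ± 0.79 in TiO2 roots. CeO2 roots, with particles in water, were at 7.87 ± 0.29, also above water (1.73 ± 0.37, adjusted p = 0.225). LHW rose by 2.55 ± 0.37 in KCl against water (adjusted p = 0.0377, and 0.0853 with the replicate block). It fell by 2.39 in TiO2 against KCl (SE 0.37, adjusted p = 0.0281, and 0.0618 with the block), and TiO2 differed from water by 0.16 ± 0.37. The 69 plastid-encoded genes had medians of 1.37 for KCl minus water, -0.93 for TiO2 minus KCl and 0.33 for TiO2 minus water. In the last, 49 of 69 were above 0, against 45.2% of all probe sets. Without water replicate 2 the TiO2-minus-water median was -0.18, with 27 of 69 above 0. Among them, rpl36, a plastid ribosomal protein gene, read 7.87, 8.15 and 6.77 in TiO2 roots against 5.74, 4.88 and 5.51 in water roots (2.22 ± 0.81).

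In rosette leaves the heat shock genes lay on the other side of 0. All 11 of the list were lower in TiO2 than in water leaves, with a median of -0.60, against 2.04 in roots, and 47.2% of all probe sets were higher in TiO2 leaves. AT2G29500 averaged 4.96 ± 0.68 in TiO2 leaves and 8.26 ± 1.91 in water leaves, and AT1G53540 averaged 3.56 ± 0.51 and 5.43 ± 1.79. The leaf differences of these genes were -3.29 ± 1.28 and -1.88 ± 0.98 and did not pass. KCl leaves, without particles, averaged 5.56 and 3.89 for these genes, nearer to TiO2 than to water leaves. For AT1G54050 and AT5G48570 the leaf means were 7.15 and 4.12 in TiO2, 6.07 and 3.41 in KCl, and 8.53 and 4.44 in water. The salt and the particle therefore cannot be told apart in the leaf comparison either. The 5 cold genes were also all lower in leaves, with a median of -1.03.

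The difference between the tissues was tested over all 24 arrays. The root difference minus the leaf difference was 7.73 ± 1.81 for AT2G29500 (adjusted p = 0.498), 6.12 ± 1.39 for AT1G53540 (adjusted p = 0.488), 6.004 ± 1.29 for AT1G54050 (adjusted p = 0.452) and 4.41 ± 1.03 for AT5G48570 (adjusted p = 0.498). In limma's test 0 of 22746 probe sets passed (0%), while 1229 (5.40%) had an unadjusted p under 0.05. For HSA32 the difference of differences was 2.26 ± 0.51 (adjusted p = 0.488). Root-minus-leaf values for the ER body genes were in the opposite direction, at -1.99 ± 0.67 for JAL33 and -2.64 ± 1.26 for PYK10, which is scarcely expressed in leaves.

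**Figure D5:**
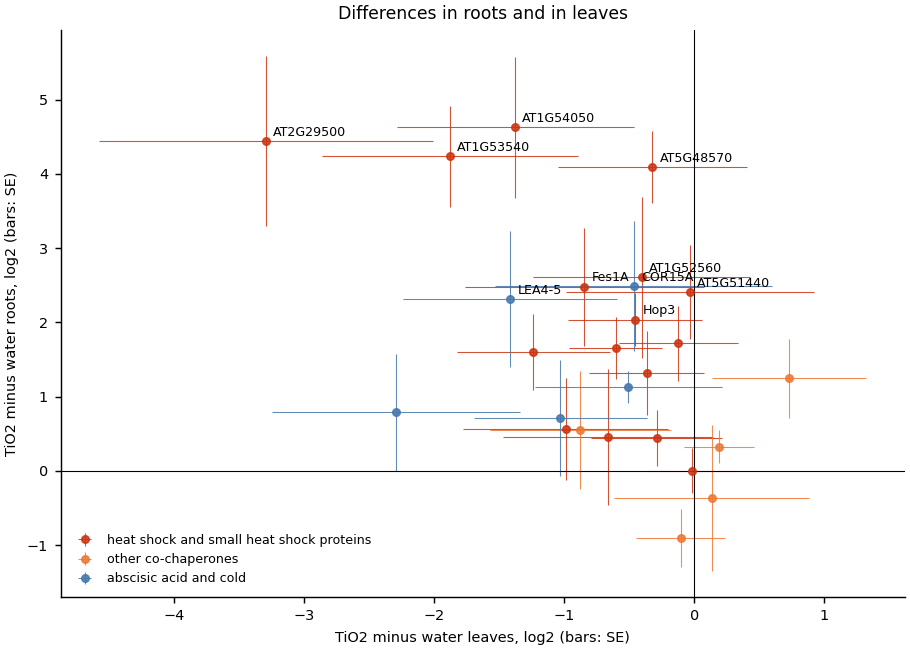
TiO2 minus water in roots (vertical axis) against TiO2 minus water in leaves (horizontal axis), in log2 units with bars of 1 SE, for the measured heat shock, small heat shock, co-chaperone, and abscisic acid and cold genes. Points with a root difference above 2 are named, and every heat shock gene lies left of 0 in leaves, with AT2G29500 at 4.44 in roots and -3.29 in leaves.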

How the data were processed

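Root and leaf RNA (15 ug per labelling reaction, per the labels) was measured on Affymetrix ATH1 arrays. The deposited values are log2 signals that the authors made with RMA (background correction, normalization and summary to probe sets), per the submitters' processing notes; its version, and which arrays were normalized as a set, are not given in the sources used here. All 22746 probe sets were tested without a filter. Linear models with a mean per group were fitted to the 12 root arrays with limma 3.58.1 in R 4.3.3, with two-sided moderated tests and Benjamini-Hochberg adjustment over all probe sets at a threshold of 0.05; the tissue interaction used all 24 arrays. The number of arrays limits the precision.

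Genes came from the platform's probe annotation, updated through gene IDs with the RefSeq table of TAIR10.1: 14016 probe sets are listed, 13513 with 1 gene and 503 with several, 13436 of the single ones matched, and 8730 are unlisted. Where probe sets shared a gene, the brightest in roots was used. Named genes are those that passed without overlap of the groups, completed to 8 rises and 8 falls by smallest unadjusted p. To these were added 2 of each list by p and the reference genes. Others, such as AT5G51440, Hop1, LTI30 or PYK10, were named from their list after their values were seen. The gene lists, the whole-family lists among them, were chosen with earlier results of these data known, as was the comparison itself. Python 3.11.15, pandas 2.3.3 and matplotlib 3.10.9 made the tables and plots. The labels number the replicates. Deviations from the group means of same-numbered KCl and water roots correlated at 0.374, 0.341 and 0.176 across probe sets. For TiO2 with water, with KCl and with CeO2 roots at least 1 same-numbered pair was under 0.1. Differently numbered arrays also reached high values, such as 0.533 for TiO2 replicate 1 with KCl replicate 2. Deviations within a group cancel out, so these correlations cannot show whether the numbers pair the arrays. Alternatives covered the arrays in the fit, the replicate number as a block, normalization, a level filter, array weights, the variance prior and each array left out.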

Additional observations from a re-analysis of the deposited data

How the results depend on the processing

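The single passing probe set was lost (0 passing) when only the 6 arrays or all 24 arrays were fitted, with a replicate block, after quantile normalization or median centring, among probe sets above the median level, without the narrow arrays, without the narrow TiO2 and water arrays only, and without any 1 of the 12 root arrays (0 to 0). With a trended and robust prior 1 passed, AT5G48570. Array weights gave 4871 passing (2260 higher, 2611 lower) by the default method, which did not converge and gave water replicate 3 a weight of 9.58, and 101 (70 higher, 31 lower) gene by gene; 1 array then carries most of a group. Same-numbered TiO2 and water arrays deviated with correlations of -0.46, -0.33 and 0.17. Deviations within a group cancel out, so these values cannot show whether the numbers pair the arrays. A replicate block left 0 of 27 for KCl against water, 34 of 79 for TiO2 against KCl and 4 of 38 for TiO2 against CeO2; quantile normalization gave 25 for the last. For KCl against water, 11 passed higher and 16 lower, and 7 and 21 after centring, which moved the median of all probe sets from 0.03 to -0.09, and 25 and 12 after quantile normalization. The tissue interaction gave 0, and 0 to 6 when 1 array was left out, the 6 without TiO2 leaf replicate 1. No named gene that passed changed sign. The following list alternatives without an array were added after seeing the data. List medians ranged, when 1 array was left out, from 1.26 to 2.42 (heat shock), 0.88 to 1.88 (carbon starvation), -0.0148 to 0.34 (auxin and cytokinin), -0.31 to -0.0277 (flavonoid), -0.69 to -0.02 (methionine sulfoxide reductases), -0.18 to 0.0332 (UDP-glycosyltransferases) and 0.28 to 0.80 (H2B histones). Without the narrow TiO2 and water arrays they were 0.0152 (auxin and cytokinin), -0.30 (flavonoid), 0.0426 (methionine sulfoxide reductases) and 0.40 (H2B). Members above the median level gave 0.79 (auxin and cytokinin) and 0.39 (glutathione S-transferases). The cause of these shifts was not tested.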

Other observations

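Over all single-gene probe sets, list members included, 24 had a difference above 2 and 7 one below -2. The genes named next lie outside the fixed lists and were chosen after their values were seen. AT1G14200 read 9.96, 11.29 and 10.01 in TiO2 roots against 7.93, 5.72 and 8.47 in water roots (3.05 ± 0.92, adjusted p = 0.9999), above all 9 other root arrays. AT1G30070 read 7.92, 5.93 and 9.12 against 4.69, 5.53 and 4.73 (2.67 ± 0.75). AT2G20560, a J-domain co-chaperone of HSP70, read 8.65, 7.25 and 7.54 against 5.48, 5.29 and 4.95 (2.57 ± 0.85), so that the groups did not overlap. AT1G10585, a bHLH protein, was uneven among the TiO2 arrays, at 7.17, 3.88 and 9.08 against 3.89, 4.00 and 3.74. In leaves it averaged 4.22 ± 0.41 in TiO2 and 9.63 ± 3.08 in water, and 4.98 in KCl leaves without particles. None of these passed.

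Autophagy genes of the ATG8 family, whose proteins coat the autophagosome, were mostly higher in TiO2 than in water roots, within the spread of the arrays. Of 9 measured, 8 were above 0, against 45.2% of all probe sets, with a median of 0.54. An unadjusted p under 0.05 was found for 0 of them, against 2.35% of all probe sets. Without water replicate 2 the median was 0.19, with 7 of 9 above 0. The medians were 0.59 for KCl minus water and 0.42 for CeO2 minus water, and 4 of the 9 were higher in TiO2 than in KCl roots. ATG8E read 9.61, 8.81 and 10.28 in TiO2 roots against 8.998, 6.53 and 8.65 in water roots (1.51 ± 0.82), and ATG8H differed by 1.48 ± 0.70, with overlapping groups for both. The 4 measured H2B histone genes were all above 0, against 45.2% of all probe sets. Their median was 0.57, or 0.28 without water replicate 1 and 0.80 without water replicate 2, and it was 1.16 for KCl minus water. Tubulin genes, which serve the cytoskeleton, had a median of -0.16 over 7 genes, or -0.48 without water replicate 1 (1 of 7 higher) and 0.47 without water replicate 2 (6 of 7 higher), and of -1.07 for KCl minus water. The 29 measured expansin and xyloglucan enzyme genes had a median of -0.09, and EXPA9, an expansin, differed by -1.48 ± 0.86. HCT, an enzyme of lignin precursor synthesis, was at 11.75 ± 0.65 in TiO2 roots and 12.71 ± 0.34 in water roots (-0.96 ± 0.43). Over the 16 mitochondrion-encoded genes the median was 0.05 for TiO2 minus water, 1.15 for KCl minus water and -1.24 for TiO2 minus KCl. The first was -0.41 without TiO2 replicate 2 (4 of 16 higher) and 0.38 without TiO2 replicate 1 (14 of 16 higher).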
